A study of Mus musculus with 6 samples.

Results

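Collagens, laminins and other basement membrane genes were followed in the mouse macrophage line RAW264.7, grown alone or together with TTJ cells. The members are 68 genes, chosen by symbol: every protein-coding gene of a collagen or laminin chain in the table, the nidogens Nid1 and Nid2, the proteoglycans Hspg2 and Agrn, Fn1, Sparc, and 7 genes of integrin chains. They are 68 of the 54532 genes in the deposited count table, of which 22046 are protein-coding. All 68 were found, and 34 of them had enough reads to be tested.

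The study has 6 mouse RNA-seq libraries in 2 groups of 3. The first group is RAW264.7 cells alone (replicates A, B and C), for which the labels name no treatment. The second is RAW264.7 cells after 48 h of coculture with TTJ cells (replicates A, B and C). The labels give the RAW264.7 cells of both groups as wild type macrophages. TTJ cells lack Tsc2, a gene whose product restrains mTORC1, and come from an angiomyolipoma of a mouse model of tuberous sclerosis. Both lines were kept in DMEM with 10% FBS. The series' design text describes the RNA as coming from FACS-sorted cells. The sources used here do not give the gate, and a library of TTJ cells alone was not analysed here. Nothing in the labels ties a replicate to its own culture. The p-values set the difference between groups against the spread among libraries within a group, and that spread may be only technical.

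A basement membrane is a thin sheet of matrix under epithelia and around muscle, fat and vessels. Laminins, each built of an alpha, a beta and a gamma chain, form the first network on the cell surface, held by integrins and dystroglycan. Triple helices of collagen IV chains form another network, and nidogens and the heparan sulfate proteoglycans perlecan and agrin tie the networks together. Fibrillar collagens belong to the interstitial matrix outside this sheet. Macrophages bind and remodel matrix but are not known as its main makers, a role of epithelial, mesenchymal and endothelial cells.

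The promoter sequences of the 3 genes with the largest rises in CPM and of Col4a5 are shown first, because the 3 were higher in the same libraries in which Col4a5, the most abundant collagen IV gene, was lower. RefSeq promoter sequence (GRCm38.p6) was found by symbol for 49 of the 68 members. Each line below reads 5′ to 3′ on the strand of the gene and ends upstream of both the RefSeq start and the start in the deposited table. Capitals mark a GC box (GGGCGG, or CCGCCC on the other strand) or a CCAAT box (CCAAT, or ATTGG). Lama5 encodes the laminin alpha 5 chain, and its upstream sequence (250 bases, chr2:180225860-180226109, minus strand) holds 4 GC boxes. Agrn encodes agrin, and its upstream sequence (250 bases, chr4:156197489-156197738, minus strand) holds 12, some of which overlap. Itga3 encodes the integrin alpha 3 chain, and 163 bases (chr11:95076802-95076964, minus strand) hold 2. Col4a5 encodes a collagen IV chain, and 216 bases (chrX:141475169-141475384, plus strand) hold 1 CCAAT box and no GC box.
Lama5: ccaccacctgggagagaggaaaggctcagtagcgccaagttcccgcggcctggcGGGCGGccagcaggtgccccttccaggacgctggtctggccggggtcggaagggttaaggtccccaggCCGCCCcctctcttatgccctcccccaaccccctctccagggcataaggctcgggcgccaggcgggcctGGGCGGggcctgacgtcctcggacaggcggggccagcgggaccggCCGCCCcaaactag
Agrn: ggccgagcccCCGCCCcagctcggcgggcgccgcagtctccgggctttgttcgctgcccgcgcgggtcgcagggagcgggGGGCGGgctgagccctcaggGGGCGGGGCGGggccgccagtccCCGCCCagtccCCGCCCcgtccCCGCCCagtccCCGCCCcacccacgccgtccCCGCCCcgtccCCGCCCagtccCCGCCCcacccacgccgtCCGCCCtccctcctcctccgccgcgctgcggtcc
Itga3: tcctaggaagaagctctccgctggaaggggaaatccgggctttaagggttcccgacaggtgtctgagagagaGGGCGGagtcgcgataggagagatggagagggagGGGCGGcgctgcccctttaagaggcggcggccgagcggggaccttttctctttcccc
Col4a5: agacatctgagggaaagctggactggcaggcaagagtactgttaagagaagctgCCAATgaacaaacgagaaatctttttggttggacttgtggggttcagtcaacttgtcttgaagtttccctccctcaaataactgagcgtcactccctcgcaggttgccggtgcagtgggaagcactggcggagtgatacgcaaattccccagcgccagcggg

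Across all 27025 promoters of the table, 33% held a GC box in the 250 bases upstream of the start, and 27 of the 49 matched members did. Of the 18 matched members that were higher in coculture, 11 held one (61.1%). The 27025 promoters were not limited to genes tested here, as the 18 were, so the shares in this paragraph compare unlike sets. A CCAAT box was present in 34.5% of all promoters, in 15 of the 49 members and in 6 of the 18. The TATA box letters TATAAA or TTTATA stood in 13% of all promoters, in 5 of the 49 and in 0 of the 18. The AP-1 letters TGANTCA, which read the same on both strands, stood in 6.85% of all, in 1 of the 49 and in 0 of the 18. These are matches of letters in a window. They show no binding.

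The 6 collagen IV genes lie in pairs that start close together and run in opposite directions, a known feature of this family, and the pairs are shown because the changes differed between pairs. The first bases of Col4a1 and Col4a2 in the deposited table overlap over 22 bases (chr8:11312805-11312826, printed on the plus strand), with 1 GC box in capitals. Between the starts of Col4a4 and Col4a3 lie 71 bases (chr1:82586850-82586920, printed on the minus strand), with none of the 4 motifs. The starts of Col4a5 and Col4a6 are 1309 bases apart.
Col4a1 and Col4a2: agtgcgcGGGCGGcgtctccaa
Col4a3 and Col4a4: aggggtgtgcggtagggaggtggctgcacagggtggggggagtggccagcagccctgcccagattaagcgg

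The libraries held 14621832, 16700748 and 17358280 gene counts for the cells alone and 14329487, 15643602 and 16976782 after coculture. Levels below are CPM, counts scaled to library size with TMM factors, or, to compare genes, the deposited FPKM, which divides by gene length. Macrophage markers were present in all libraries, at a summed 11558 to 11678 CPM alone and 12277 to 12618 CPM after coculture. The largest part was Lyz2, at a mean of 6768 CPM alone and 7266 CPM after coculture. All 10 had enough counts in each group, and 6 were higher and 2, Cd68 and Spi1, were lower. Over all genes with enough counts in each group, 17.1% were higher and 17.1% lower. Renal and simple epithelium markers summed to 0.231 to 0.480 CPM alone and to 402, 462 and 426 CPM in coculture A, B and C. All 10 tested of 15 listed were higher. These 10 had enough counts for the test only through the cocultured libraries, and 80.5% of all genes tested in this way were higher. Epcam and Lhx1 were at 0 in every library, and Krt19 had 3 counts after coculture. Markers of mesenchyme and smooth muscle summed to 1.90 to 2.20 CPM alone and to 34.2 to 39.1 CPM after coculture. Of 12 listed, 3 were tested and 2 were higher, Cav1 and Timp3. Both had enough counts only through the cocultured libraries. Their means after coculture, 15.2 and 17.9 CPM, made up most of this sum. Acta2 did not pass the test, and the other 9 were too low to test. Pdgfra and Thy1 were at 0 in every library. Endothelial markers summed to 0.173 to 0.481 CPM alone and 0.894 to 1.47 CPM after coculture, with 0 of 6 tested and Tie1 and Emcn at 0. Each of these marker sums was higher after coculture, the macrophage sum only slightly, and their part in the results below was not tested. In bulk RNA, more cells of a type and more RNA per cell cannot be told apart. Without a library of TTJ cells alone, transcripts of RAW264.7 cells and of TTJ cells in the cocultured libraries cannot be told apart either. This holds for every gene below.

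After coculture the matrix genes as a whole were higher. Their summed level was 487.2, 506.3 and 482.6 CPM in the cells alone and 1122, 1206 and 1196 CPM after coculture, or 0.0482 to 0.0506% and 0.112 to 0.121% of all counts. The groups did not overlap. Of the 34 tested members, 26 were higher, 2 were lower and 6 did not pass the test (edgeR's quasi-likelihood F test, Benjamini-Hochberg adjusted p under 0.05). Over all 12972 genes tested, 21.7% were higher and 15.2% were lower. Of the net rise of 682.77 CPM, Lama5 made up 20.1%, Agrn 19.9%, Itga3 14.6%, Lamc1 8.56%, Hspg2 7.09%, Col18a1 5.30% and Lamb1 4.40%.

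The members divide by where their counts lay. The filter on low counts, set at 0.618 CPM, was passed within each group by 8 members, and 6 of these were higher (Agrn, Col18a1, Itga6, Lamb2, Lamc1 and Col7a1), 1 was lower (Col4a5) and 1 did not pass the test (Col11a2). Of the 11389 genes that passed in this way, 17.1% were higher and 17.1% were lower, and the median log2 difference, coculture minus alone, was 1.24 over the 8 members and -0.016 over all. Another 21 members passed only through the cocultured libraries. A gene that enters the test this way was selected by its cocultured counts, which favours a higher level after coculture without requiring it. Of all 1090 such genes 80.5% were called higher, so the 20 of 21 called higher here are a description. The exception was Nid2, whose groups overlapped. Their summed level was 2.82 to 2.96 CPM alone and 407.6, 476.5 and 439.8 CPM after coculture. Replicate B was the highest coculture library for this sum and for the epithelial and mesenchymal marker sums. The macrophage and endothelial marker sums were highest in coculture replicate A, and the reason for either order was not tested. Of the others, 2 passed only through the lone libraries (Col20a1 and Col23a1) and 3 only through libraries of both groups together (Col4a6, Col27a1 and Col9a3). The remaining 34 members were too low to test, and 16 of the 68 were at 0 in all 6 libraries.

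**Figure D1:**
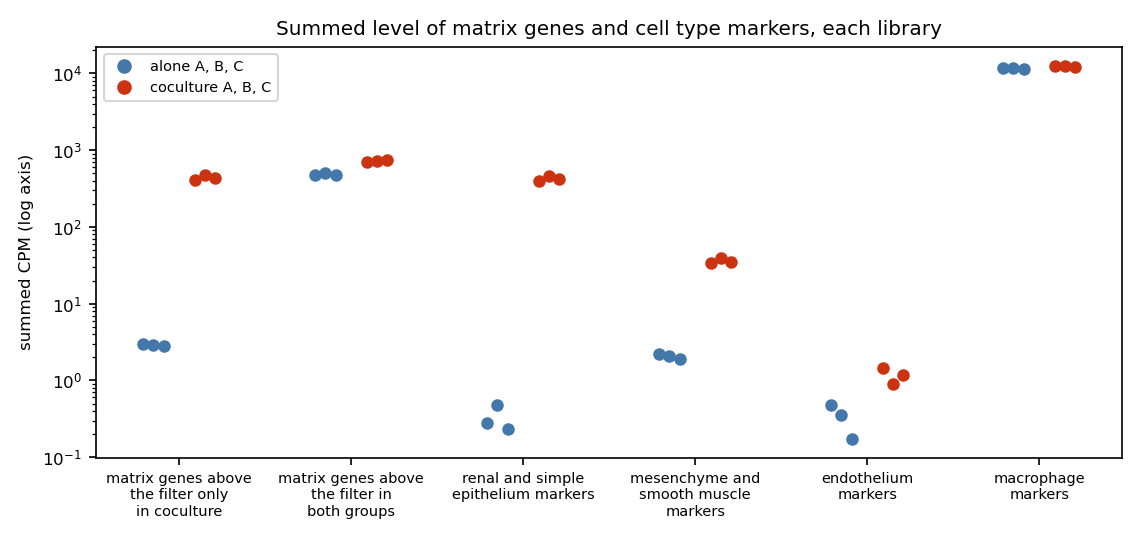
Summed level (CPM, log axis) of the matrix genes that passed the filter only in coculture or in both groups, and of 4 cell type marker lists, with 1 point per library in the order A, B, C. Matrix genes that passed only in coculture went from 2.82 to 2.96 CPM to 407.6 to 476.5 CPM, and epithelial markers from 0.231 to 0.480 CPM to 402 to 462 CPM.

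Of 11 laminin chain genes 7 were tested and all 7 were higher. Only Lamc1 and Lamb2 of these passed the filter within each group, where 17.1% of all genes were higher, and the other 5 passed only through the cocultured libraries, where 80.5% were. The main chain of the lone macrophages was Lamc1 (chr1:153218922-153332786), the gamma 1 chain that most laminins share. It stood at 252.7, 264.6 and 256.2 CPM alone and at 313.2, 308.5 and 327.1 CPM after coculture. The groups did not overlap, but the rise was small, 1.23-fold (log2 0.29, SE 0.0421, adjusted p = 3.03e-06). Lama5 (chr2:180176373-180225859), the alpha chain of laminins in many adult basement membranes, had a single count in the lone libraries, in replicate B, and reached 127, 150 and 134.1 CPM after coculture. The ratio of its summed counts, each scaled to the TMM library sizes of its group as for every ratio and lower bound below, was 6666, and its exact 95% interval, for counting error alone, ran from 1196 to 263319 (adjusted p = 5.33e-24).

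The beta chains differed in where they started. Lamb1 (chr12:31265234-31329644) had 2 counts alone, 1 each in replicates A and B, and 30.6, 30.76 and 28.97 CPM after coculture (ratio 730, interval 202 to 6035, adjusted p = 1.81e-19). Lamb2 (chr9:108479736-108490530), the beta chain of the kidney filter and the nerve-muscle junction, was already at 3.095, 2.878 and 3.803 CPM alone and reached 16.39, 18.96 and 18.34 CPM. It rose 5.47-fold (log2 2.45, SE 0.148, adjusted p = 5.88e-13), and after coculture the FPKM was 3.03 ± 0.101 for Lamb1 and 2.94 ± 0.223 for Lamb2 (SD, n = 3).

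Chains of the laminin that anchors epithelia to their membrane were also higher, at lower levels. Lamb3 was at 0, 0.1199 and 0.2881 CPM alone and 11.91, 14.87 and 14.63 CPM after coculture, a rise of 91.2-fold (log2 6.51, SE 0.316, adjusted p = 7.76e-15) that was 192-fold without lone replicate C. Lama3 had no count alone and 1.23 ± 0.160 CPM after coculture (SD, n = 3), at least 19.995-fold higher when the lone group is set at 3 counts in all (adjusted p = 1.25e-06).

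Per length, the laminin chains were far from equal amounts. After coculture Lama5 stood at 0.315 ± 0.0331 of the FPKM of Lamc1 in the same library, Lamb1 at 0.0795 ± 0.00495 and Lamb2 at 0.0770 ± 0.00624 (SD, n = 3). In the cells alone Lamc1 had an FPKM of 31.1 ± 0.702 and the deposited FPKM of Lamb2 was 0.0172 ± 0.00274 of it, and Lamb2 was the next highest laminin chain there. Among the epithelial chains after coculture, Lama3 was at 0.0549 ± 0.00643 of the FPKM of Lamb3. Lama1, Lama4 and Lamc3 had no count in any library, and Lama2 had 3 counts alone and 1 after coculture.

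**Figure D2:**
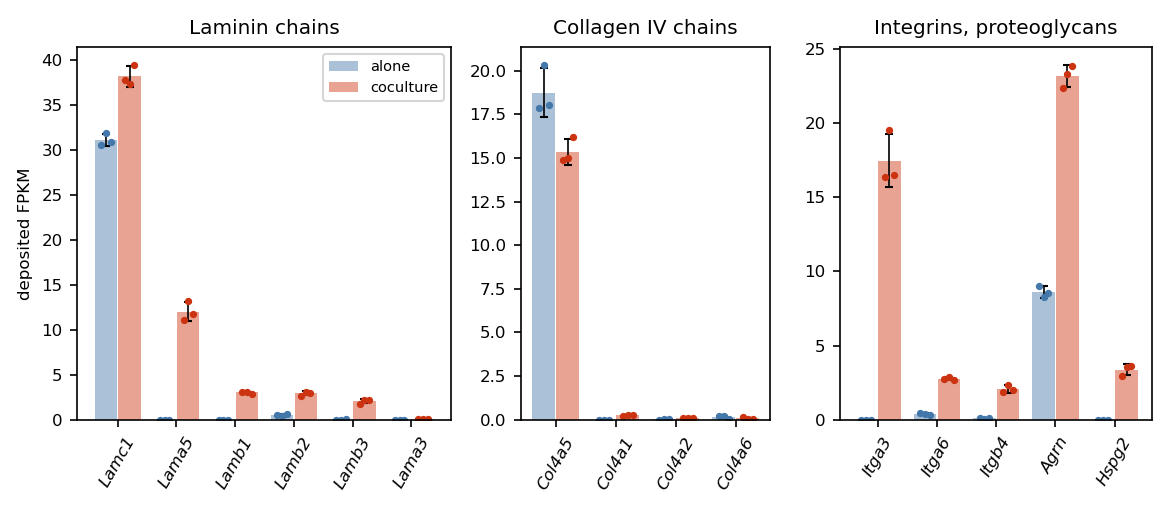
Deposited FPKM (linear axes) of laminin, collagen IV, integrin and proteoglycan genes, with bars for the mean of 3 libraries, error bars for the SD and a point per library, alone in blue and coculture in red. After coculture Lamc1 is the highest laminin chain at 38.2 ± 1.14 FPKM (SD, n = 3), followed by Lama5 at 11.1 to 13.2 FPKM.

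Collagen IV chains did not move together. Col4a5 (chrX:141475385-141689234), the chain mutated in X-linked Alport syndrome, was the collagen with the highest CPM in the lone macrophages, at 120, 137.2 and 121.4 CPM. It was lower after coculture, at 100.1, 100.8 and 109.3 CPM, and the groups did not overlap. The fall was 1.22-fold (log2 -0.29, SE 0.0556, adjusted p = 0.000175) and passed the threshold in every alternative fit. Its neighbour Col4a6 was at 1.719, 1.499 and 0.5187 CPM alone and 1.05, 0.2553 and 0.5289 CPM after coculture, which overlap (log2 -1.02, SE 0.485, adjusted p = 0.104). It was called lower without lone replicate C (adjusted p = 0.0241) or without coculture replicate A (adjusted p = 0.0407).

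The widespread pair Col4a1 and Col4a2, which form the common collagen IV helix, was low in both groups and higher after coculture, and both passed the filter solely through the cocultured libraries. Col4a1 had 2 counts alone and 1.84 ± 0.202 CPM after coculture (SD, n = 3; ratio 45.0, interval 12.1 to 377, adjusted p = 1.18e-07). Col4a2 went from 0.180 ± 0.0962 to 0.724 ± 0.0745 CPM, a 3.80-fold rise (log2 1.93, SE 0.563, adjusted p = 0.00843). Its call was lost without lone replicate A (adjusted p = 0.0564) and in DESeq2 (adjusted p = 0.0739). After coculture the FPKM of Col4a1 was 0.0160 ± 0.0016 of that of Col4a5. The pair found in the mature kidney filter was too low to test, with 1 count alone and 14 after coculture for Col4a3, and 0 and 32 for Col4a4.

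**Figure D3:**
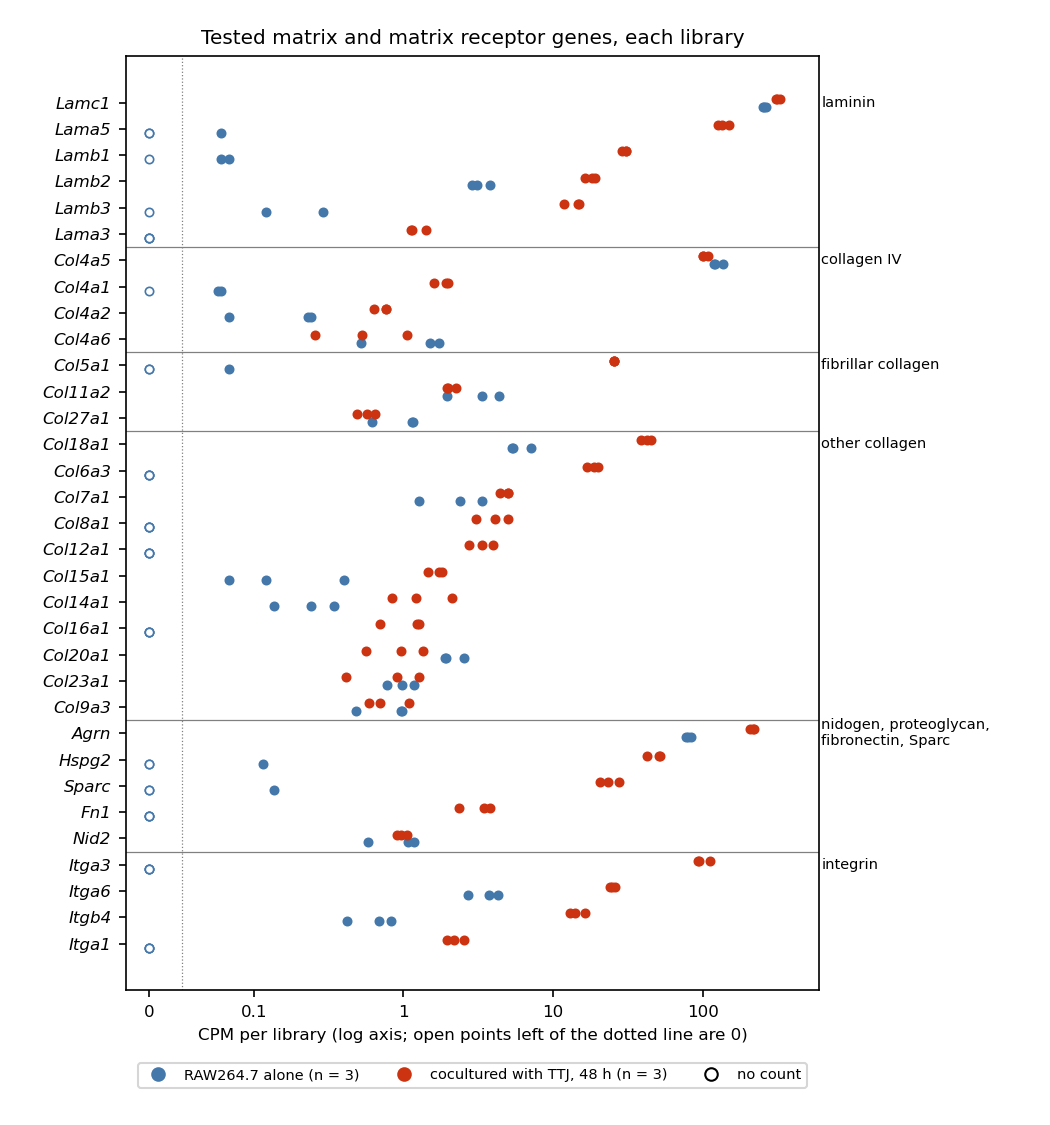
CPM of tested matrix genes in each of the 6 libraries (log axis), grouped by class, with alone in blue, coculture in red and open points for libraries with no count. Lamc1 and Col4a5 are high in both groups, while Lama5, Itga3 and Hspg2 are at or near 0 alone and reach 127 to 150, 93.84 to 111.4 and 42.37 to 52.19 CPM after coculture.

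Most fibrillar collagens were at or near 0. Of 11 listed, 3 were tested and 1 was higher, a gene that passed only through the cocultured libraries: Col5a1 (chr2:27886425-28039514), the collagen V chain that sets the start and width of collagen I fibrils. Col5a1 had 1 count alone, in replicate A, and 25.49, 25.59 and 25.74 CPM after coculture (ratio 1244, interval 223 to 49183, adjusted p = 9.26e-19). Its fibril partners were near 0: after coculture Col1a1 had 3 counts, Col1a2 1, Col5a2 1 and Col5a3 5, and all 4 had none alone. Col3a1, Col11a1 and Col24a1 had no count in any library, and Col2a1 had 6 counts alone and 1 after coculture. Col11a2 was at 4.333, 3.358 and 1.959 CPM alone and 1.961, 1.978 and 2.233 CPM after coculture, which overlap (log2 -0.63, SE 0.282, adjusted p = 0.0873), and was called lower without lone replicate C (adjusted p = 0.0125). Col27a1 had 48 and 27 counts (log2 -0.77, adjusted p = 0.165).

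Among the 27 other collagens 11 were tested, and 8 were higher and 1 was lower. Of the 8, only Col18a1 and Col7a1 passed the filter within each group, and 6 passed only through the cocultured libraries, where 80.5% of all genes were higher. Col18a1 (chr10:77052178-77166548), a basement membrane collagen whose end is cut off as endostatin, was at 5.296, 5.396 and 7.146 CPM alone and 38.87, 45.25 and 42.32 CPM after coculture. It rose 7.05-fold (log2 2.82, SE 0.113, adjusted p = 1.64e-16). It overlaps Slc19a1 on the opposite strand, and reads from the pair may be mixed since no strand setting is stated. Slc19a1 itself had 5000 counts alone and 4413 after coculture. Col6a3 (chr1:90765923-90843971), the longest chain of the beaded filament collagen VI, had no count alone and 16.95, 18.7 and 19.86 CPM after coculture, at least 301-fold higher (adjusted p = 1.89e-16). The chains it assembles with were near 0, with 12 counts of Col6a1 after coculture and no count of Col6a2 in any library.

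Col7a1, which forms anchoring fibrils under skin epithelium, was at 3.37, 2.398 and 1.268 CPM alone and 5.042, 5.042 and 4.408 CPM after coculture. It rose 2.09-fold (log2 1.06, SE 0.260, adjusted p = 0.00202), and the call was lost in the FPKM fits (adjusted p = 0.0669 with a pseudocount of 1 and 0.142 with 0.1). The short network collagen Col8a1 was at 0 alone and 4.08 ± 0.981 CPM after coculture (SD, n = 3), at least 66.5-fold higher (adjusted p = 3.75e-10). The fibril-associated Col12a1 was at 0 alone and 3.37 ± 0.626 CPM after coculture, at least 54.8-fold higher (adjusted p = 1.24e-09). Col16a1, of the same family, had no count alone and 1.07 ± 0.321 CPM, at least 17.6-fold higher (adjusted p = 4.62e-06). Col15a1, a relative of Col18a1, went from 0.197 ± 0.180 to 1.67 ± 0.181 CPM, 7.87-fold (adjusted p = 2.35e-05), and 16.1-fold without lone replicate C. Col14a1, also fibril-associated, went from 0.241 ± 0.104 to 1.39 ± 0.656 CPM, 5.58-fold (adjusted p = 0.000293), and was not called with an FPKM pseudocount of 1 (adjusted p = 0.0714).

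Col20a1, a little-studied collagen of the fibril-associated family, was the other member that was lower. It was at 2.545, 1.919 and 1.902 CPM alone and 0.5602, 0.9573 and 1.352 CPM after coculture, without overlap, and fell 2.16-fold (log2 -1.11, SE 0.346, adjusted p = 0.0131). The call was lost without lone replicate A (adjusted p = 0.0687), without coculture replicate A (adjusted p = 0.0748), in DESeq2 (adjusted p = 0.0543) and in the FPKM fits (adjusted p = 0.0606 and 0.121). It overlaps 9230112E08Rik on the same strand. Col23a1 (log2 -0.18, adjusted p = 0.784) and Col9a3 (log2 -0.05, adjusted p = 0.942) did not pass the test. The other 16 were not tested, and the highest of them, Col6a1, had the 12 counts given above.

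**Figure D4:**
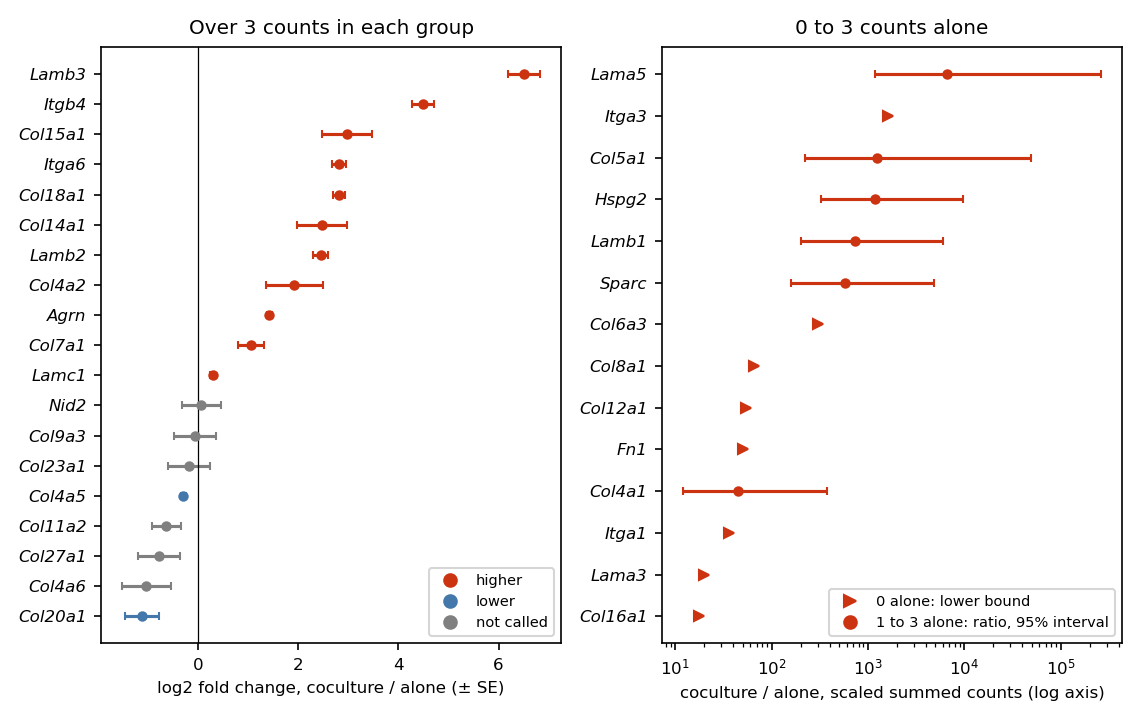
Left, log2 difference (coculture minus alone) with its SE for tested genes with over 3 counts in each group, in red where higher, blue where lower and grey where not called. Right, for genes with 0 to 3 counts alone, the ratio of summed counts scaled to library size (log axis) with its 95% counting interval, or a triangle for the lower bound where the lone count was 0. Col4a5 and Col20a1 are the called genes on the lower side, at -0.29 and -1.11.

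Of the 6 nidogen, proteoglycan, Fn1 and Sparc genes, 5 were tested and 4 were higher. Only Agrn passed the filter within each group, and the other 4 passed only through the cocultured libraries, with 3 of them called higher against 80.5% of all such genes. Agrn (chr4:156165290-156197488) was the highest of these genes in the lone macrophages, at 83.98, 77.23 and 79.47 CPM, and it reached 208.6, 216.6 and 222.2 CPM. It rose 2.69-fold (log2 1.43, SE 0.0492, adjusted p = 8.03e-18). Hspg2 (chr4:137468769-137570630), which encodes perlecan, had 2 counts alone, both in replicate C, and 42.37, 50.87 and 52.19 CPM after coculture (ratio 1184, interval 327 to 9784, adjusted p = 2.65e-20). Per length agrin stayed the main heparan sulfate proteoglycan of the pair after coculture, at 6.90 ± 0.591 times the FPKM of perlecan (SD, n = 3).

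Sparc (chr11:55394500-55423183), a secreted collagen-binding protein, had 2 counts alone, both in replicate A, and 20.59, 27.64 and 23.45 CPM after coculture (ratio 582, interval 161 to 4814, adjusted p = 3.17e-17). Fn1, fibronectin, had none alone and 3.782, 3.446 and 2.351 CPM after coculture, at least 51.0-fold higher (adjusted p = 2.98e-09). Nid1 had no count in any library. Nid2 was at 0.942 ± 0.320 CPM alone and 0.975 ± 0.0754 CPM after coculture (SD, n = 3; log2 0.07, SE 0.388, adjusted p = 0.912). It overlaps Rtraf on the opposite strand, which had 4807 and 5069 counts. Nidogens link laminin to collagen IV.

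Integrin chains were chosen as those that bind laminin or collagen or belong to epithelia, and 4 of 7 were tested and all 4 were higher. Only Itga6 passed the filter within each group, and the other 3 passed only through the cocultured libraries, as did the genes of which 80.5% were called higher. Itga3 (chr11:95044474-95076801), the alpha chain of the laminin receptor alpha 3 beta 1, had no count in the lone libraries and 93.84, 111.4 and 94.39 CPM after coculture. It was at least 1618-fold higher (adjusted p = 1.5e-21). Itga6 (chr2:71745616-71858416), another laminin-binding chain, was at 4.264, 3.717 and 2.709 CPM alone and 24.65, 26.04 and 24.21 CPM after coculture, 7.06-fold higher (log2 2.82, SE 0.140, adjusted p = 1.16e-14). Itgb4, its partner in hemidesmosomes, was at 0.8253, 0.4197 and 0.6915 CPM alone and 13.03, 16.47 and 14.05 CPM after coculture, 22.5-fold higher (log2 4.49, SE 0.220, adjusted p = 9.63e-15). After coculture the FPKM of Itga3 was 6.31 ± 0.396 times that of Itga6, and that of Itgb4 was 0.747 ± 0.0669 of it (SD, n = 3).

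Itga1, the alpha chain of a collagen IV receptor, had no count alone and 2.22 ± 0.286 CPM after coculture (SD, n = 3), at least 36.2-fold higher (adjusted p = 2.05e-08). It overlaps Pelo on the same strand. Itgb6 had 0 counts alone and 32 after coculture, Itga2 had 2 and 3, and Itgb8 had 2 and 0, and none of these 3 was tested. The shared partner Itgb1, named here after its values were seen, was already at 247 ± 16.6 CPM alone and rose to 346.4 ± 5.73 CPM, 1.40-fold (log2 0.49, SE 0.0462, adjusted p = 3.25e-09).

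Some genes that fold, trim and cross-link collagen rose. Of 34 listed, 23 were tested, 11 were higher and 1 was lower. Of the 11, 7 passed the filter solely through the cocultured libraries, where 80.5% of all genes were higher. Of the 15 that passed the filter within each group, 4 were higher, 1 was lower and 10 did not pass the test. Their median log2 difference was 0.056. Over all genes that passed within each group, 17.1% were higher and 17.1% lower, with a median of -0.016. Serpinh1, the collagen chaperone HSP47, had no count alone and 33.2 ± 5.09 CPM after coculture, which puts it at least 538-fold higher (adjusted p = 8.98e-18). Loxl4, a lysyl oxidase, had 1 count alone and 42.6 ± 5.60 CPM after coculture (ratio 2073, interval 372 to 81904), and Pcolce2, which speeds the trimming of procollagen, was at 0 and 1.94 ± 0.423 CPM, at least 31.4-fold higher. P4hb, a subunit of the collagen prolyl hydroxylase and a general foldase, stood at 1573 ± 36.7 CPM alone and 1736 ± 119 CPM after coculture and rose 1.10-fold (adjusted p = 0.00585). Tmem38b, a potassium channel of the endoplasmic reticulum, fell from 383.9 ± 28.1 to 320 ± 19.3 CPM (log2 -0.26, adjusted p = 0.000152).

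Of 28 other matrix receptors 21 were tested, and 15 were higher and 1 was lower. Of the 15, 4 passed the filter solely through the cocultured libraries, where 80.5% of all genes were higher. Among the 17 that passed within each group, 11 were higher and 1 was lower, with a median log2 difference of 0.49. Over all genes that passed in this way, 17.1% were higher and 17.1% lower, with a median of -0.016. The summed level of the listed receptors overlapped between groups, at 3692 to 3914 CPM alone and 3653 to 3761 CPM after coculture. The largest part of this sum was Itga4, the 1 gene called lower, so the overlap does not describe the 15 that were higher. Bcam, a receptor for laminin alpha 5, had 1 count alone and 18.1 ± 1.56 CPM after coculture (ratio 877, interval 157 to 34681). Ddr2, a receptor for fibrillar collagen, had 2 counts alone and 30.8 ± 1.97 CPM (ratio 745, interval 206 to 6159), and the syndecan Sdc2 was at 0 and 1.84 ± 0.580 CPM, at least 29.3-fold higher. Itga4, a fibronectin-binding chain of leukocytes, was the 1 that fell, from 2260 ± 85.5 to 1347 ± 61.1 CPM, 1.68-fold (adjusted p = 1.17e-14). The hyaluronan receptor Cd44 was at 284.4 ± 1.46 CPM alone and 450.9 ± 18.8 CPM after coculture, a 1.59-fold rise (adjusted p = 1.01e-12).

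Of 38 other matrix proteins 15 were tested, 13 were higher and none was lower. Only 3 of them passed within each group, where 17.1% of all genes were higher, and all 3 were higher. The other 10 of the 13 passed only through the cocultured libraries, where 80.5% of all genes were higher. Thbs1, thrombospondin 1, had no count alone and 37.9 ± 5.04 CPM after coculture, at least 617-fold higher. Fbln2, a basement membrane fibulin, had 1 count alone and 31.1 ± 0.874 CPM (ratio 1509, interval 270 to 59641), and Ltbp1, which holds latent TGF-beta, was at 0 and 7.68 ± 0.456 CPM, at least 124-fold higher. Spp1, osteopontin, which macrophages make, was at 4663 ± 161 CPM alone and 8351 ± 425 CPM after coculture, a 1.79-fold rise (adjusted p = 1.8e-16). Ecm1, extracellular matrix protein 1, was at 15.8 ± 1.47 and 28.7 ± 2.54 CPM, a 1.82-fold rise (adjusted p = 9.05e-08).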

How the data were processed

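There were 3 RNA-seq libraries of RAW264.7 cells alone and 3 of RAW264.7 cells after coculture, with poly-T selected RNA. Raw gene counts were used as deposited by the authors. FPKM values, named so in the deposited file, equal counts over gene length and library total to within a factor of 0.9955 to 1.004. The submitters' processing notes name the build mm10, HISAT2 2.0.5, featureCounts 1.5.0-p3, DESeq2 1.20.0 and edgeR 3.22.5 without roles. The sources used here state no strand setting.

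The members, lists and alternatives were chosen with earlier results of these data known. Counts were tested with edgeR 4.0.16 in R 4.3.3 (TMM, filterByExpr by group, quasi-likelihood F test) on all 54532 genes, with Benjamini-Hochberg adjustment over the 12972 tested. SE is the size of the log2 difference divided by the square root of F. A member at 0 in all lone libraries was compared with 3 counts over the group, and one with 1 to 3 counts by an exact 95% interval of the count ratio, scaled to library size (counting error only). Values in all libraries are given for members of at least 1 CPM alone and for called members that reach 5 CPM in either group. Lower called members are given by mean and SD, and untested ones by counts. Of each supporting list, up to 3 called genes of at least 1 CPM with the largest log2 difference and up to 2 with the highest CPM are named. Some genes that these rules take are not reported here, but counts and sums include them. Other scalings and filters, DESeq2 1.42.0, limma 3.58.1 on log2(FPKM + 1 or 0.1), a replicate block and leaving out each library were the alternatives. The edgeR script was tested on simulated data. The common biological coefficient of variation was 5.29%, and replicates differed by more than sampling noise (chi-square per degree of freedom 2.98 to 4.58).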

Additional observations from a re-analysis of the deposited data

How the results depend on the processing

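By edgeR 26 members were higher and 2 lower. Members called higher numbered 6 of 10 tested among genes with a mean of at least 1 CPM in the lone libraries and 13 of 14 with log2(FPKM + 1) and a mean FPKM of at least 1, where fewer members are tested. Members called lower numbered 1 in DESeq2 and 1 in each of the 3 limma fits, and 1 to 4 when a library was left out (1 without lone replicate A, 4 without lone replicate C). Over all genes, log2(FPKM + 1) with a mean FPKM of at least 1 called 1707 higher, and 1144 (FPKM + 1) and 1204 (FPKM + 0.1) were called lower against 1974. The cause was not tested. Collagen processing genes called higher numbered 4 with the lone CPM minimum and 7 with the FPKM minimum, and 0 rather than 1 were lower with log2(FPKM + 1). Other matrix proteins called higher numbered 3 and 7 under the same minimums. Among members passing within each group, 1 to 2 were lower when a library was left out. Among single-member results under the alternatives, 475 kept direction and side of the threshold, 10 lost the call, 3 gained it and 6 reversed. The reversals were in uncalled genes: with a library left out, log2 differences ran from -0.59 to 0.18 for Col23a1, -0.35 to 0.14 for Col9a3 and -0.20 to 0.25 for Nid2.

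Deviations of same-letter libraries from their group means correlated at 0.0014, 0.020 and 0.035. These values show no clear pairing by replicate letter, but with so few libraries they cannot decide whether cultures were shared. With a replicate block 26 members were higher and 2 lower, and 2815 genes were higher and 1951 lower. Depth limits the untested members, where a few counts decide a value.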
